A study of Mus musculus with 18 samples.

Results

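Cytosolic ribosomal protein genes were followed across the cortex of adult mice of 3 genotypes. The set was taken by symbol from the protein-coding genes of the count table (Rpl or Rps with a number and an optional suffix, and Rpsa, Rplp0, Rplp1 and Rplp2; the Rps6k kinases and pseudogene symbols were left out), and no measured value entered this choice. It held 83 of 55385 genes, of which 51 were Rpl or Rplp genes of the large subunit and 32 were Rps genes or Rpsa of the small subunit. Enough reads for a test were found for 81 of the 83, among 18717 genes tested in all. The others were Rpl10l and Rpl39l, described with their relatives below.

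Polyadenylated RNA of brain cortex was sequenced in 18 libraries, 6 per genotype, each with 3 males and 3 females aged 17.1 to 18.0 weeks. WT animals were labelled as wild-type C57BL/6J. Dp16 animals carry a duplicated segment of mouse chromosome 16 that is used as a model of trisomy 21, which puts its genes at 3 copies in place of 2. Dp16 2xIFNRs animals carry the same duplication with the interferon receptor genes inside it back at 2 copies. The labels give no treatment, the strain background of the duplication groups is not given in the labels, and the duplication is germline, so every cell carries it. No member lies in the segment (chromosome 16, 75540514 to 97962622, GRCm38). The members are spread over 19 chromosomes, with 14 on chromosome 7, 4 on X and 3 on chromosome 16 outside the segment.

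Ribosomal proteins clothe the ribosomal RNAs of the small and large subunits, and most are needed in equal number in every ribosome. Their mRNAs are abundant, short and stable, and in mammals they typically begin with a run of pyrimidines at the very 5′ end, the 5′ terminal oligopyrimidine (TOP) motif, through which the mTOR kinase controls their translation. In neurons, ribosomal protein mRNAs are also found in dendrites and axons, where local translation takes place.

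RefSeq promoters (GRCm38.p6, 250 bases before to 50 bases after each annotated start) were matched by symbol for 63 of the 83 members. The windows below hold 25 bases on either side of the start, on the strand named, with capitals for an unbroken run of at least 6 C or T letters over the start. They are shown because a run at the start is the genomic form of the TOP motif. The first 6 are the members with an entry that were called in at least 1 alternative fit. Rps6, Rps27 and its relative Rps27l were added after the sequences had been seen, and where a gene has several annotated starts the longest run was taken.
Rpl13a (chr7:45128721-45128770, minus strand): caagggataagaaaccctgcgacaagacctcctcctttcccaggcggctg
Rpl14 (chr9:120571492-120571541, plus strand): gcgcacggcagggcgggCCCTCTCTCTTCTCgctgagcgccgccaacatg
Rpl27a (chr7:109519170-109519219, plus strand): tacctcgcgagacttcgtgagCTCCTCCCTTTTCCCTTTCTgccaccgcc
Rpl35 (chr2:39005107-39005156, minus strand): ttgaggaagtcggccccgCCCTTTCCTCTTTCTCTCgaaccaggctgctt
Rplp2 (chr7:141447626-141447675, plus strand): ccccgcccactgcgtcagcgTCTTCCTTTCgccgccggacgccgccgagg
Rps23 (chr13:90923097-90923146, plus strand): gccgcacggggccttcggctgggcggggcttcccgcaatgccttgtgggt
Rps6 (chr4:86857343-86857392, minus strand): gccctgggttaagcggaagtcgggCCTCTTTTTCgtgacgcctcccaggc
Rps27 (chr3:90213624-90213673, minus strand): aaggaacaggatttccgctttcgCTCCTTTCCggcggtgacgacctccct
Rps27l (chr9:66946061-66946110, plus strand): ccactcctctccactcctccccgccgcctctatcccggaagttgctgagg
A run covers the annotated start in 6 of these 9 windows and is absent over it in Rpl13a, Rps23 and Rps27l. Unmarked runs lie close to the start in Rpl13a, just after it, and in Rps27l, just before it. Absence of a run over the annotated start therefore does not show that an mRNA lacks the motif. Over all annotated starts, a run of at least 6 letters lay over the start in 19 of 75 member promoters (25.3%), against 7.25% of the 32851 promoters of the table.

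In total 8 sequence features were searched, all chosen with the sequences in view: 3 definitions of the run, on the sense strand, and 5 motifs, on both strands. A run of at least 5 letters over the start was found in 26.7% of member promoters and 10.1% of all promoters. A run of at least 8 letters that came within 10 bases of the start was found in 40% and 14%. CCGGAA, the core letters bound by ETS family factors, was found in 48% and 14.9%, and the longer CCGGAAG, which contains it, in 36% and 8.86%. AAGATGG was found in 16% and 6.34%. TATAAA was found in 9.33% and 13.6%, and CTTTTC, which overlaps the runs, in 24% and 21.8%. The pyrimidine run, CCGGAA and AAGATGG were thus more frequent among members, and TATAAA was not, with no test made. The promoters compared with were not limited to coding genes or to genes tested in cortex. Rps25 shows the ETS letters in capitals, in a window of its promoter that was also picked after the fact.
Rps25 (chr9:44407624-44407663, plus strand): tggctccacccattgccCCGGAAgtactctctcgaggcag

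Levels per length were compared between genes on the deposited RPKM values, in which each count is divided by the library total and by 1 listed gene length. Rplp1, a protein of the flexible stalk that recruits elongation factors, was highest at 813 RPKM over the 18 libraries. Rps29 followed at 429, Rps15, which lies by the decoding site, at 421, and Rps21 at 326 RPKM. Lowest among the tested members stood Rpl3l at 0.187 RPKM, Rps27l at 7.93, Rpl7l1 at 11.2 and Rps15a at 18.4. The listed length of Rps15a is 5395 bases, the longest among the members (median 977, shortest 383), and its RPKM depends on that length. The plot of RPKM by gene shows the order of the tested members. Counting settings for reads that match several places are, as far as labels and headers go, not given in the sources used here, and 216 of 311 ribosomal protein pseudogene symbols in the table had reads, together 0.531% of the members' counts, so values of members with near-identical copies are uncertain.

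**Figure D1:**
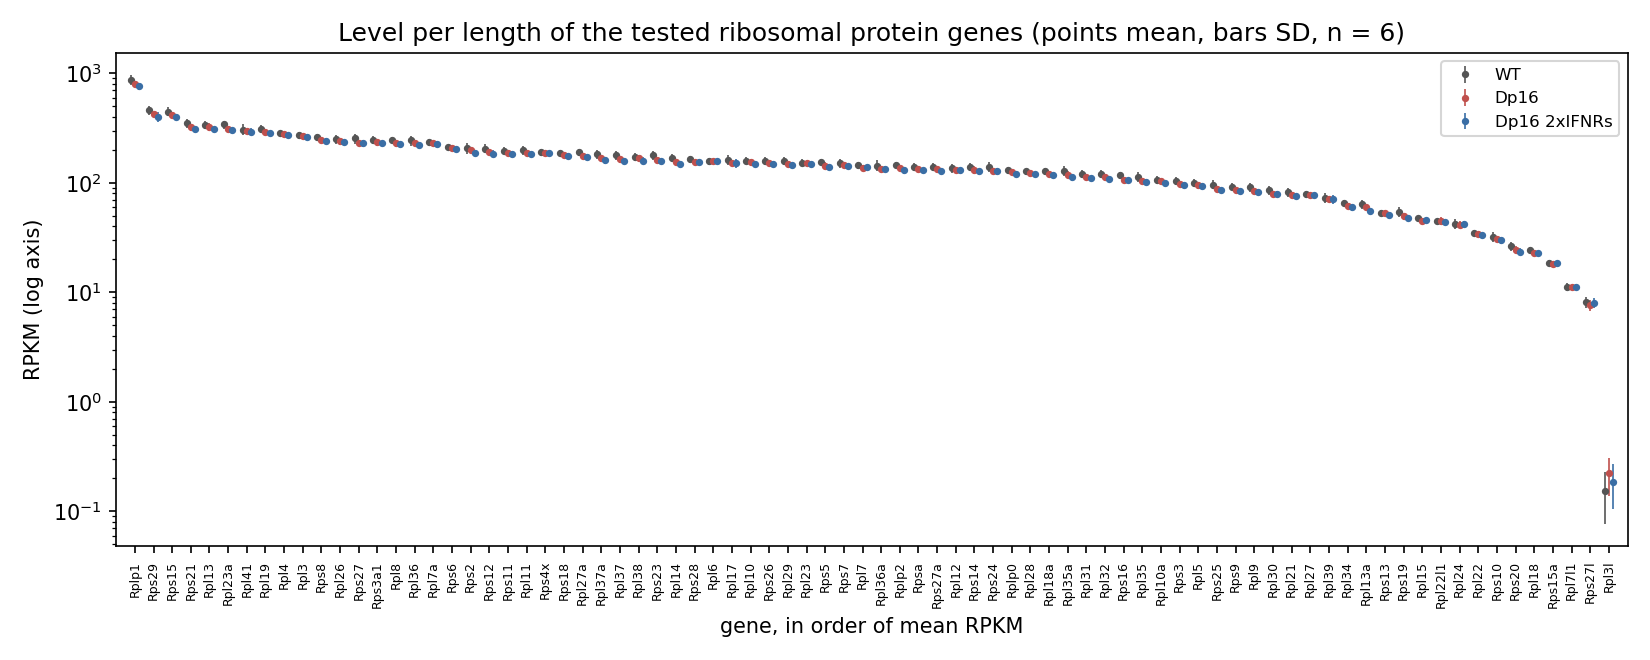
RPKM (log axis) of 80 of the 81 tested ribosomal protein genes in order of their mean, with the mean and SD of 6 libraries per genotype. Rplp1 is highest at 813 RPKM and Rpl3l lowest at 0.187. The 3 genotypes lie close together for each gene apart from Rpl3l (0.153 in WT, 0.222 in Dp16 and 0.186 in Dp16 2xIFNRs).

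Library totals ran from 46346019 to 67281449 counts, and the members took 1.26 ± 0.0968% of counts in WT, 1.2 ± 0.0645% in Dp16 and 1.17 ± 0.0478% in Dp16 2xIFNRs (SD, n = 6 each). Markers of cortical excitatory neurons were present in every library, with a summed level of 1915 to 2484 CPM (counts scaled to library size) over 8 genes. WT replicate 6 stood apart in several marker lists (values beside the results below), and choroid plexus markers varied from 4.95 to 374 CPM between libraries. Labels name each library as a separate sample but do not say how the animals were sampled, and p-values measure the spread between these samples.

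The ribosomal protein genes moved together from library to library, and the libraries of the 3 genotypes overlapped. A score was formed per library as the mean over the 81 tested members of log2 CPM less the gene's WT mean. WT libraries ran from -0.22 through a median of 0.02 to 0.14. Dp16 libraries ran from -0.22 through -0.06 to 0.03, and Dp16 2xIFNRs libraries from -0.19 through -0.13 to 0.02. The lowest WT library, replicate 6, was as low as the lowest Dp16 library, replicate 5, and in each of these 79 of 81 members lay below their WT mean. In WT replicate 4, the highest library, 1 member did. In 5 of the 6 Dp16 2xIFNRs libraries between 74 and 80 members lay below it, and in replicate 1 only 27 did.

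**Figure D2:**
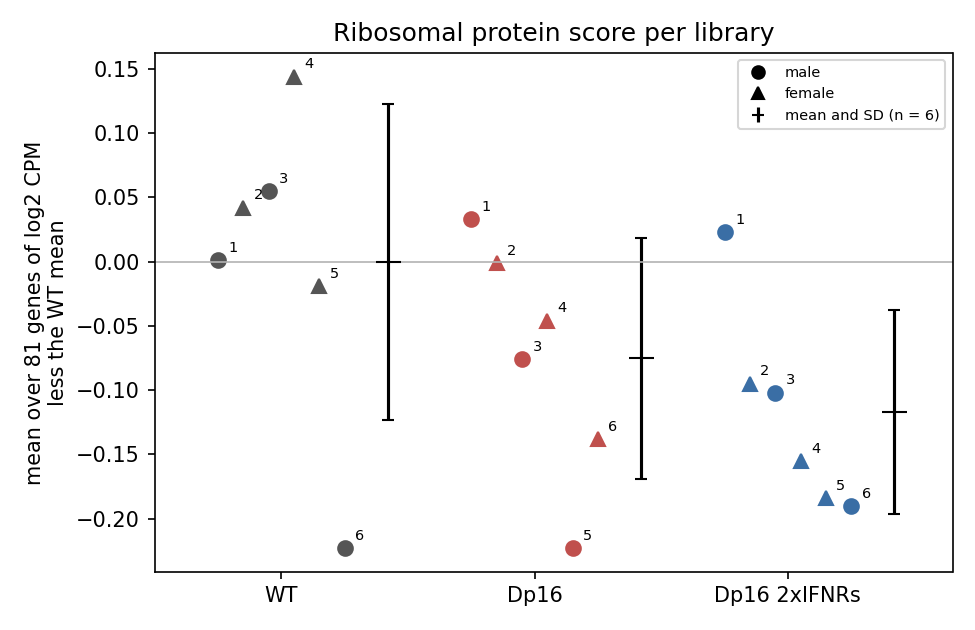
Ribosomal protein score per library, the mean over 81 genes of log2 CPM less the gene's WT mean, with the replicate number, the sex (circle male, triangle female) and the mean and SD of 6 libraries per genotype. WT replicate 6 and Dp16 replicate 5 share the lowest score, -0.22, and WT replicate 4 has the highest, 0.14.

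The mean score was lower by 0.08 in Dp16 (SD 0.0938) and by 0.12 in Dp16 2xIFNRs (SD 0.0794) than in WT (SD 0.123, n = 6 each). The difference between Dp16 and WT was smaller than the SD within either group. With WT replicate 6 left out, the means stood 0.12 and 0.16 below the remaining 5 WT libraries. WT then ran from -0.06 to 0.10 and Dp16 2xIFNRs from -0.24 to -0.02, so the groups still overlapped. WT females averaged 0.06 and WT males -0.06, Dp16 females -0.06 and males -0.09, and Dp16 2xIFNRs females -0.15 and males -0.09 (n = 3 each).

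Members shared most of their spread. The median SD of a member within genotypes was 0.114 on the log2 scale and 0.0459 after the library score had been subtracted, with a smaller SD for 78 of 81 members. The score contains each member, so part of this fall is built in. Over the 18636 other genes the median SD went from 0.167 to 0.195 on the same subtraction, and fell for 24.6% of them. Among 2334 other genes at or above the lower quartile of the members' CPM it went from 0.0932 to 0.13. The heat map shows the members that followed the others least, among them Rpl3l, Rps27l, Rpl7l1, Rpl24, Rpl39 and Rpl22l1. This description was added after the data had been seen.

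**Figure D3:**
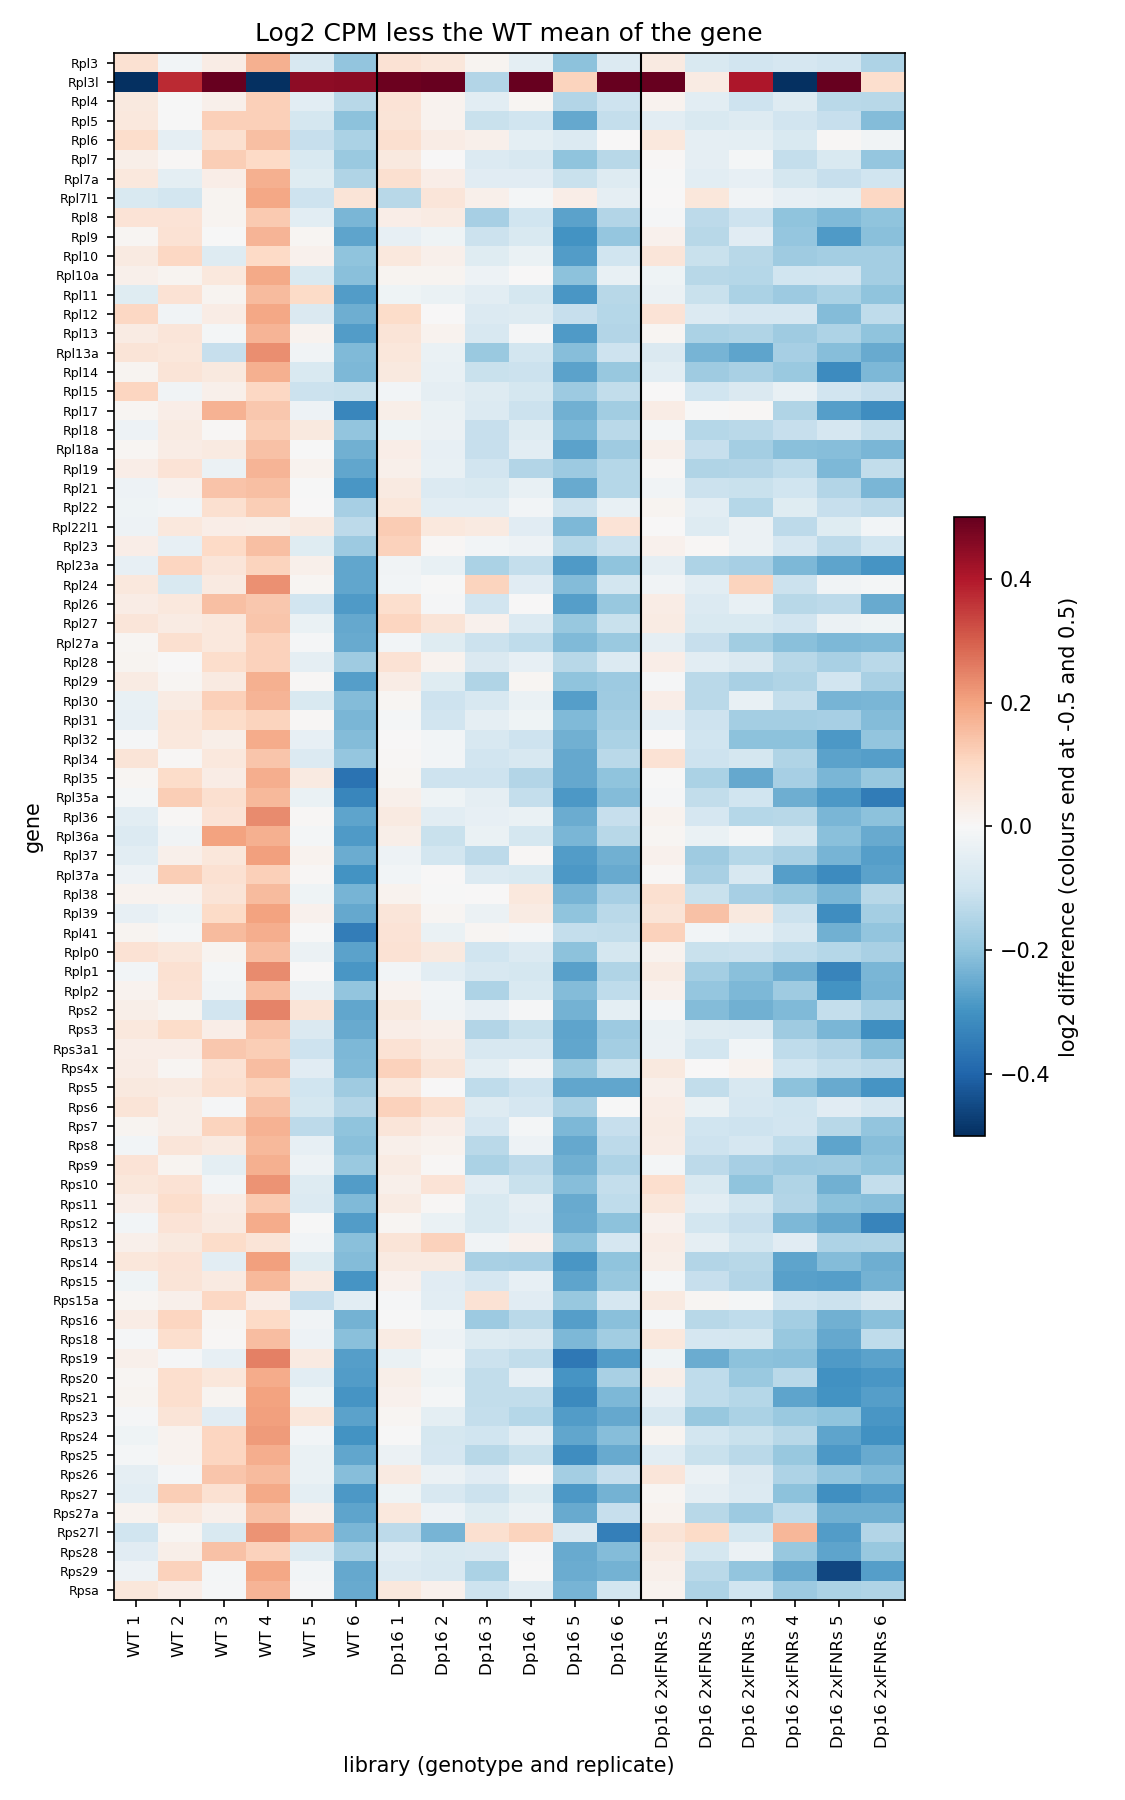
Log2 CPM of 80 of the 81 tested ribosomal protein genes less the gene's WT mean, 1 column per library, with colours ending at -0.5 and 0.5. WT 4 is high and WT 6 and Dp16 5 are low over nearly all genes, while Rpl3l, with few reads, varies by itself.

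WT replicate 6 was also low in some other lists and high in others. On the same scale its score was -0.40 for 6 astrocyte markers, -0.44 for 6 microglia markers, -0.46 for 6 endothelial and mural markers, -1.07 for 5 meningeal fibroblast markers and -0.53 for 13 mitochondrially encoded genes. Its median over other coding genes under 1 kb was -0.11, and over those of 4 kb and more 0.03. For 7 blood cell markers WT replicate 6 stood at -0.43 and for 5 choroid plexus markers at -1.32. It stood at 0.14 (0.135) for 8 cortical excitatory neuron markers and at 0.08 for 39 ribosome biogenesis genes. Dp16 replicate 5 stood at -0.08 for astrocyte, -0.15 for microglia, -0.03 for endothelial and mural and -0.29 for meningeal fibroblast markers. It stood at -0.80 for choroid plexus markers, -0.24 for mitochondrially encoded genes and -0.02 for other short coding genes. Its score was 0.10 for excitatory neuron and 0.67 for blood cell markers. The part of these differences in the ribosomal protein values was not tested, and in whole tissue fewer cells of a type and less RNA per cell cannot be told apart.

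Between Dp16 and WT, no ribosomal protein gene was called at an adjusted p below 0.05, though nearly all estimates lay slightly below 0. The count was 0 of 81 by edgeR's quasi-likelihood test with Benjamini-Hochberg adjustment, against 0.748% of all genes tested. DESeq2 also called 0 members (1.34% of all genes), as did limma-voom (0.753%). Without adjustment 8 members passed 0.05 by edgeR, all lower in Dp16, against 3.82% of all genes in that direction. DESeq2 gave 7 (3.96%) and limma-voom 6 (3.86%), all lower. Of the 81 log2 fold changes 78 were below 0, against 50.7% of all genes, with a median of -0.09 (0.938-fold) beside 0.00 for all genes. Since members move together between libraries, these 81 values do not count as 81 separate observations. All 32 small subunit members lay below 0, with a median of -0.11 (-0.105 to 3 decimals), as did 46 of 49 of the large subunit, with a median of -0.09.

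Between Dp16 2xIFNRs and WT, again no member was called, by edgeR (1.05% of all genes called), by DESeq2 (2.17%) or by limma-voom (1.05%). Without adjustment 38 members passed 0.05, all lower in Dp16 2xIFNRs, against 5.48% of all genes in that direction. DESeq2 and limma-voom each gave 37, all lower (5.81% and 5.49% of all genes). Log2 fold changes were below 0 for 79 of 81 members (49.8% of all genes), with a median of -0.12 (0.918-fold) beside 0.00 for all genes. Medians were -0.15 in the small subunit, with 32 of 32 below 0, and -0.12 in the large subunit, with 47 of 49. Both comparisons use the same 6 WT libraries, so a low or high WT library moves both.

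**Figure D4:**
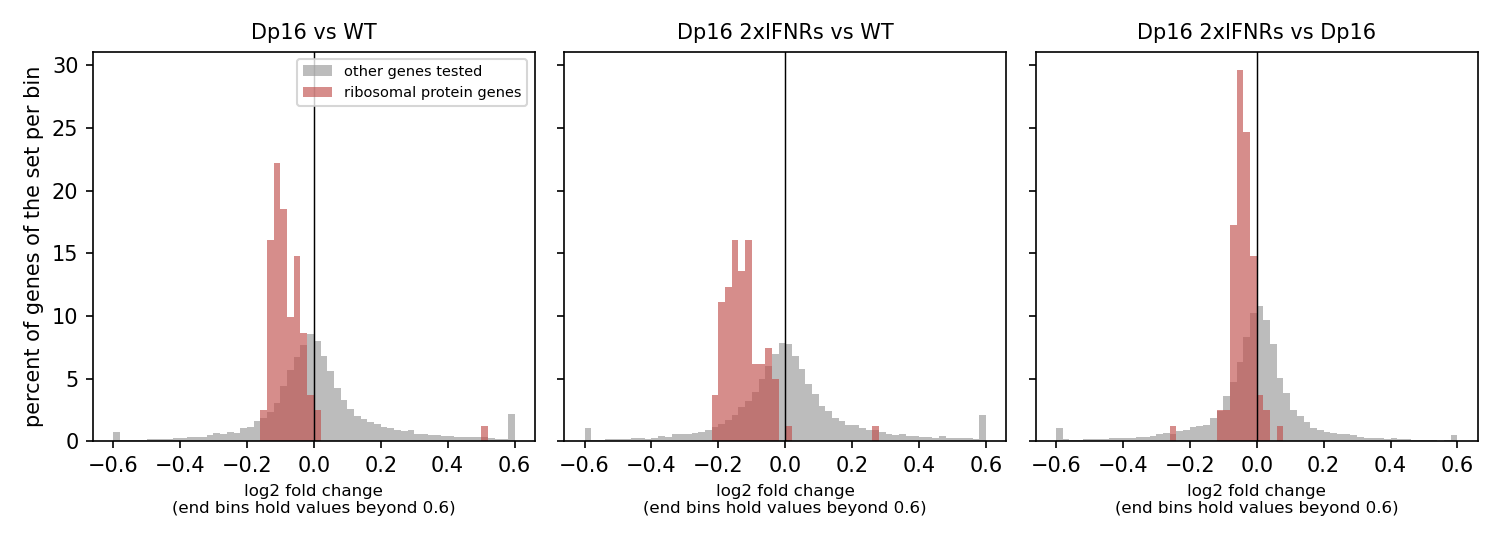
Distribution of log2 fold changes in the 3 genotype comparisons, as the percent of each gene set per bin, for the 81 ribosomal protein genes and for all other genes tested, with end bins holding values beyond 0.6. The ribosomal protein genes peak below 0 in both comparisons with WT (medians -0.09 and -0.12) and nearer to 0 between the duplication genotypes (median -0.04).

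Dp16 2xIFNRs against Dp16 gave the smallest values. No member was called by edgeR, DESeq2 or limma-voom, against 0.0214% of all genes by edgeR, and none passed 0.05 without adjustment by any of the 3 tools (2.19% of all genes by edgeR). The median log2 fold change was -0.04, with 75 of 81 below 0 (49.1% of all genes). Adjusted p-values of the members were all 1 by edgeR. The count below 0 changed with the fit, to 55 without Dp16 replicate 1 and to 54 when limma-voom weighted libraries by quality. With sex and age as terms it was 79, and 9 members passed an unadjusted 0.05, all lower (1.91% of all genes lower).

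The calls in Dp16 2xIFNRs against WT changed with the libraries in the fit. Each of the 18 libraries was left out in turn, and without WT replicate 6 the count went from 0 to 6, all lower (0.72% of all genes). Among them were Rpl13a, Rpl23a, Rpl27a, Rpl35 and Rps23, with adjusted p (edgeR) from 0.0237 to 0.0465. Without Dp16 2xIFNRs replicate 1, Rplp2 was called at an adjusted p of 0.0379 (edgeR; 0.44% of all genes called lower). Leaving out any of the 16 other libraries gave no call. Without both WT replicate 6 and Dp16 replicate 3, 5 members were called, all lower (0.724% of all genes).

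Unadjusted counts also moved with the libraries. In Dp16 against WT no member was called with any library left out, while the 8 that passed an unadjusted 0.05 became 48 without WT replicate 6 (4.53% of all genes lower) and 26 without Dp16 replicate 1 (4.06%). They became 0 without WT replicate 4, Dp16 replicate 5 or Dp16 replicate 6, between 1 and 4 without WT replicate 1, 2, 3 or 5 or Dp16 replicate 3 or 4, and 5 without Dp16 2xIFNRs replicate 4. In these last fits between 2.72% and 4.06% of all genes passed in that direction. In Dp16 2xIFNRs against WT the 38 became 69 without WT replicate 6 (6.9% of all genes lower) and 57 without Dp16 2xIFNRs replicate 1 (6.48%). They became 15 without WT replicate 4, 23 without WT replicate 2, and 21, 17 and 23 without Dp16 2xIFNRs replicate 4, 5 and 6, where between 4.19% and 5.12% of all genes passed in that direction.

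Rplp0, Rplp1 and Rplp2 form the stalk of the large subunit that contacts the elongation factors. Rplp2 (chr7:141447370-141451585) had 134 to 171 CPM in WT (median 154), 133 to 156 in Dp16 (median 144) and 125 to 156 in Dp16 2xIFNRs (median 133). The groups overlap, and the highest Dp16 2xIFNRs library, replicate 1, stands above the other 5, which reach 136 CPM. Its log2 fold change from WT was -0.10 (SE 0.0593, adjusted p = 0.704, edgeR) in Dp16 and -0.18 (SE 0.0594, adjusted p = 0.177, edgeR) in Dp16 2xIFNRs. Rplp1 had 354 to 510 CPM in WT (median 432), 359 to 429 in Dp16 (median 408) and 345 to 446 in Dp16 2xIFNRs (median 372), with overlapping groups and log2 fold changes of -0.11 and -0.19. Rplp0, the stalk's base, was at 177 ± 16.8, 170 ± 12.1 and 164 ± 7.46 CPM (SD, n = 6), with log2 fold changes of -0.06 and -0.11.

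Rpl13a, which besides its place in the ribosome serves in a complex that silences certain mRNAs after interferon gamma, had the smallest p among members in Dp16 2xIFNRs against WT. It had 61.9 to 84.8 CPM in WT (median 73.3), 62.3 to 75.1 in Dp16 (median 67.6) and 60.2 to 68.7 in Dp16 2xIFNRs (median 61.9). The low end of WT overlaps both other groups. Its log2 fold change was -0.10 in Dp16 (SE 0.0615, adjusted p = 0.717, edgeR) and -0.20 in Dp16 2xIFNRs (SE 0.0615, adjusted p = 0.145, edgeR), and -0.11 (-0.105 to 3 decimals) between these (adjusted p = 1). Rpl23a, which sits at the exit of the peptide tunnel, had 160 to 207 CPM in WT (median 198), 158 to 190 in Dp16 (median 174) and 157 to 186 in Dp16 2xIFNRs (median 168). Again the groups overlap, and the log2 fold changes were -0.14 and -0.19 (adjusted p = 0.519 and 0.17, edgeR).

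Rpl5 and Rpl11, which bind the 5S ribosomal RNA and, when free, the p53 regulator Mdm2, had log2 fold changes of -0.09 and -0.11 (-0.085 and -0.105 to 3 decimals) in Dp16 and of -0.11 and -0.14 in Dp16 2xIFNRs. Rpl10, an X-linked protein near the peptidyl transferase centre, had -0.07 (-0.065) and -0.12. Rpl6 was at 202 ± 17.4, 202 ± 7.75 and 198 ± 6.36 CPM in WT, Dp16 and Dp16 2xIFNRs (SD, n = 6), with log2 fold changes of 0.00 and -0.03. Rpl24, the gene of the Belly spot and tail mouse mutant, lies on chromosome 16 outside the segment and was at 29.0 ± 3.19, 28 ± 2.11 and 28.6 ± 1.45 CPM. The adjusted p of these members was at least 0.33 in both comparisons (edgeR).

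In the small subunit Rps25, which takes part in translation from internal entry sites, had the smallest p in Dp16 against WT. It had 111 to 150 CPM in WT (median 133), 107 to 130 in Dp16 (median 122) and 109 to 128 in Dp16 2xIFNRs (median 119). WT replicate 6 lies within both other groups, while 4 of 6 WT libraries lie above every Dp16 library and 5 of 6 above every Dp16 2xIFNRs library. Its log2 fold change was -0.16 in Dp16 (SE 0.0648, adjusted p = 0.463, edgeR) and -0.18 (-0.175) in Dp16 2xIFNRs (SE 0.0648, adjusted p = 0.262, edgeR).

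Rps19, mutated in Diamond-Blackfan anaemia, was among the lowest. It had 77.2 to 111 CPM in WT (median 94.1), 72.9 to 92.8 in Dp16 (median 86.3) and 76.8 to 92.1 in Dp16 2xIFNRs (median 79.8). The lowest WT library lies within the range of both other groups. The log2 fold change from WT was -0.15 in Dp16 (SE 0.0735, adjusted p = 0.565, edgeR) and -0.21 in Dp16 2xIFNRs (SE 0.0735, adjusted p = 0.227, edgeR).

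Rps29, a small zinc-binding protein, had the lowest log2 fold change of all members in Dp16 2xIFNRs against WT. It had 151 to 206 CPM in WT (median 179), 152 to 180 in Dp16 (median 166) and 132 to 183 in Dp16 2xIFNRs (median 155), with log2 fold changes of -0.14 and -0.21 (SE 0.0747 and 0.0748, adjusted p = 0.65 and 0.229, edgeR). The Dp16 2xIFNRs range reaches beyond the WT median. Rps2, at the mRNA entry, was at 241 ± 28.2, 232 ± 15.1 and 215 ± 13.4 CPM (SD, n = 6) and had the lowest log2 fold change between the duplication genotypes after Rpl3l, -0.11 (adjusted p = 1, edgeR). Rps15 and Rps21 had log2 fold changes of -0.11 and -0.13 in Dp16 and of -0.18 and -0.20 (-0.195) in Dp16 2xIFNRs.

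Rps6, the substrate of the S6 kinases below mTOR, was among the members nearest to WT. It was at 186 ± 13.5 CPM in WT, 184 ± 13.4 in Dp16 and 179 ± 6.35 in Dp16 2xIFNRs (SD, n = 6), with log2 fold changes of -0.02 and -0.06 (-0.055; adjusted p = 0.969 and 0.791, edgeR). Rpsa, also known as a laminin receptor, had log2 fold changes of -0.07 and -0.12. Rps27a, made as a fusion with ubiquitin, had -0.07 and -0.15. Rps15a, the member with the longest listed length, had -0.05 and -0.04.

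Some members have a close relative among the members, and the share of each pair was set side by side on RPKM (a choice made after the data had been seen). Rpl22l1 made up 56.3 ± 1.04% of the Rpl22 and Rpl22l1 pair in WT, 56.9 ± 1.6% in Dp16 and 56.8 ± 1.26% in Dp16 2xIFNRs (SD, n = 6). Rpl22 protein is known to restrain Rpl22l1. The shares differed between genotypes by less than the SD within each. Rps27l, a p53 target, made up 3.1 ± 0.285%, 3.18 ± 0.371% and 3.36 ± 0.329% of its pair with Rps27, and Rpl7l1 7.19 ± 0.699%, 7.48 ± 0.637% and 7.57 ± 0.572% of its pair with Rpl7. For these pairs too the genotypes lay within 1 SD of each other, and per length Rpl22l1 (44.7 RPKM) stood above Rpl22 (34.1 RPKM) while Rps27l and Rpl7l1 were the minor partners. The shares depend on the listed lengths, 561 bases for Rpl22l1 and 2065 for Rpl22. In reads Rpl22 was the higher of the 2, with 72.5 CPM in WT against 25.3 CPM for Rpl22l1.

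**Figure D5:**
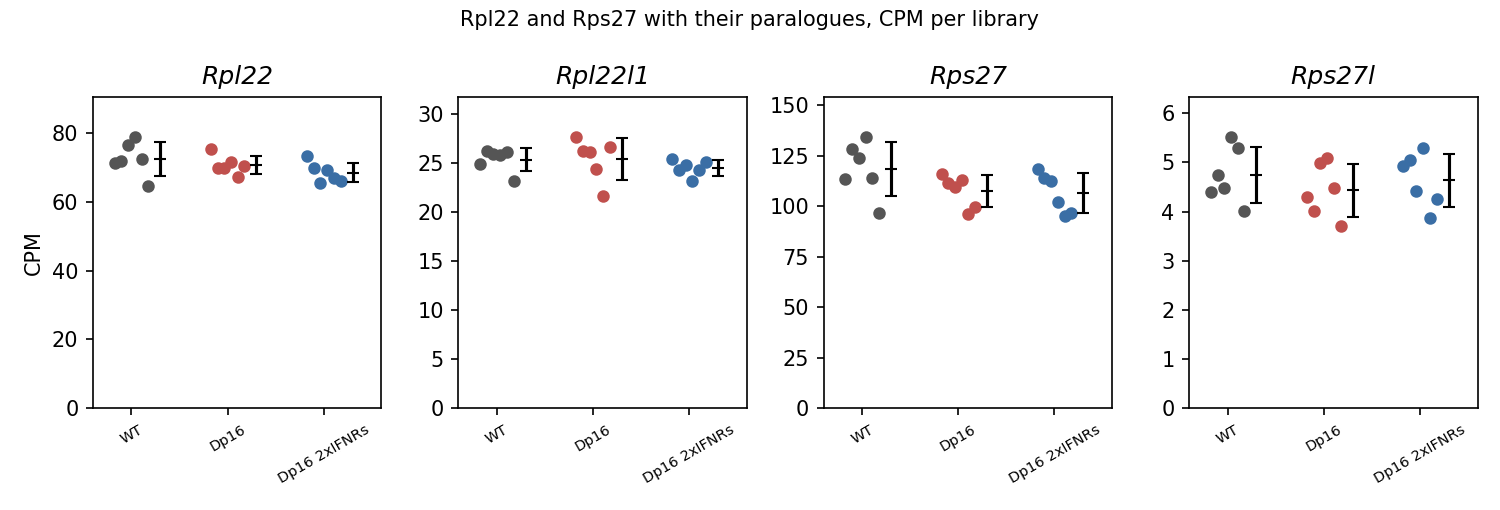
CPM per library of Rpl22, Rpl22l1, Rps27 and Rps27l, with the mean and SD of 6 libraries per genotype. Groups overlap in all 4 genes, and Rps27l (4.74, 4.43 and 4.64 CPM) is far below Rps27 (118, 108 and 106 CPM).

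Relatives typical of other tissues were rare. Rpl3l, the striated muscle form of Rpl3, had 281 counts in all 18 libraries, with 4 to 19 in WT, 11 to 29 in Dp16 and 8 to 24 in Dp16 2xIFNRs. Its log2 fold changes, 0.50 (SE 0.376) and 0.26 (SE 0.38), were the highest among members, with adjusted p of 0.786 and 0.893 (edgeR). Rpl39l, known from testis, had 49 counts in all, with 11 in WT, 20 in Dp16 and 18 in Dp16 2xIFNRs. Rpl10l, also known from testis, had 0 counts in every library, which allows up to 3 counts, or 0.00314 CPM, over the 18 libraries, for counting error only. Rpl39l and Rpl10l were not tested at these counts.

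No member was called between females and males (0.0641% of all genes called), nor in the interaction of sex with genotype (0% of all genes), by edgeR, DESeq2 or limma-voom. At an unadjusted 0.05 the count was 0 members by each of the 3 tools in both tests, against 6.64% of all genes by edgeR between the sexes and 3.2% in the interaction. The median log2 fold change of females over males was 0.03, with 69 of 81 above 0, and -0.002 without WT replicate 6, a male.

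Ribosomal proteins with other kinds of symbol also had estimates below 0 in both comparisons with WT, and none of them was called. Fau, a fusion with a ubiquitin-like protein, was at 133 ± 14.8, 125 ± 9.45 and 120 ± 9.6 CPM in WT, Dp16 and Dp16 2xIFNRs (SD, n = 6), with log2 fold changes of -0.09 and -0.14 (adjusted p = 0.794 and 0.447, edgeR). Rack1, a scaffold protein of the small subunit, had log2 fold changes of -0.07 and -0.10, Rpl36al of -0.12 (-0.115) and -0.10, and Rps27rt of -0.09 (-0.085) and -0.17. Among 20 translation factors of TOP mRNAs 17 and 15 lay below 0, with medians of -0.04 (-0.035) and -0.04. Among 39 ribosome biogenesis genes 22 and 16 lay below 0, with medians of -0.01 and 0.02, and among 31 genes of the mTOR pathway and S6 kinases 18 and 21, with medians of -0.01 and -0.02. No gene of these 3 lists was called.

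Other multi-subunit machines gave medians near or above 0. For 75 mitochondrial ribosomal protein genes outside the segment the medians were 0.03 in Dp16 and 0.03 in Dp16 2xIFNRs, for 81 nuclear oxidative phosphorylation genes -0.01 and -0.02 (-0.015), and for 39 proteasome genes 0.01 and 0.04, with no gene called in any. Other coding genes under 1 kb (595 genes) had medians of 0.01 and 0.00, beside 41 of 81 tested members under 1 kb. No difference between lists was tested.

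Cell type markers were read beside these values. All 6 microglia markers lay below 0 in Dp16 2xIFNRs against WT and 5 of 6 in Dp16, with summed levels of 281 to 437 CPM in WT, 320 to 395 in Dp16 and 327 to 385 in Dp16 2xIFNRs. Endothelial and mural markers lay below 0 for 5 of 6 in Dp16 and 6 of 6 in Dp16 2xIFNRs (283 to 422 CPM in WT, 322 to 406 in Dp16 and 318 to 424 in Dp16 2xIFNRs), and excitatory neuron markers for 6 of 8 in both (1987 to 2484, 1915 to 2286 and 1921 to 2249 CPM). Choroid plexus markers lay below 0 for 4 of 5 in Dp16 2xIFNRs, with a median of -0.96, and for 0 of 5 in Dp16 (4.95 to 193 CPM in WT, 6.19 to 374 in Dp16 and 5.98 to 17.7 in Dp16 2xIFNRs). Oligodendrocyte markers lay below 0 for 1 of 6 in Dp16, and all 6 lay above 0 in Dp16 2xIFNRs, with a smallest adjusted p of 0.0572 (edgeR). Their summed levels were 4647 to 6050 CPM in WT, 4849 to 6395 in Dp16 and 5275 to 5809 in Dp16 2xIFNRs. Astrocyte markers lay below 0 for 1 of 6 in Dp16 and 2 of 6 in Dp16 2xIFNRs, and GABAergic neuron markers for 2 of 6 in both. Meningeal fibroblast markers did so for 3 and 2 of 5, and striatal markers for 4 and 2 of 5. All 7 blood cell markers lay above 0 in both (37.2 to 56.1 CPM in WT, 33.8 to 87.9 in Dp16 and 38.5 to 106 in Dp16 2xIFNRs). None of these markers was at 0 in any library and none was called, and their part in the ribosomal protein values was not tested.

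Members with a run of C or T over an annotated start and those without were both below WT. In Dp16 the median log2 fold change was -0.10 for the 19 members with a run and -0.07 for the 42 without. In Dp16 2xIFNRs it was -0.15 and -0.11. Members without a run over the start include some with a run close to it, such as Rpl13a. This split therefore does not separate mRNAs with the TOP motif from those without. For CCGGAA the medians were -0.09 with and -0.07 without in Dp16, and -0.12 and -0.11 in Dp16 2xIFNRs. These are descriptions of 61 tested members with an entry, with no test of the difference, and library preparation from polyadenylated RNA measures mRNA level and not translation.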

How the data were processed

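TRIzol RNA was selected for poly(A) tails, prepared by a kit that keeps the strand, and sequenced as read pairs (NovaSeq), per the labels' protocols. The submitters' processing notes name HISAT2 2.1.0 and HTSeq 0.6.1, beside FastQC 0.11.5 and SAMtools 1.5, and the build GRCm38. How strand and multi-mapped reads were handled in counting is not stated there. The authors deposited raw counts per gene, and RPKM values that matched count over library total and listed length in 31735 of 31735 genes checked (relative tolerance 1e-06). Counts were filtered with filterByExpr (minimum count 10), scaled by TMM and tested with edgeR 4.0.16 (quasi-likelihood F test, robust, genotype and sex, all 18 libraries, 14 residual degrees of freedom, in R 4.3.3), with Benjamini-Hochberg adjustment over all 18717 genes and calls at 0.05. Log2 CPM used a prior count of 2. DESeq2 1.42.0 and limma 3.58.1 gave alternatives. The fit was tested on simulated data, in which most changes of the smallest size simulated, larger than the members' median differences, were not called. The changed genes were drawn at random from all genes kept, with counts drawn separately per gene. The simulation therefore does not measure how often changes in the members would be called. That simulation and its pass criteria were revised after a first run missed its pass criterion. Gene positions come from GENCODE M21, while the files use M24.

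The members, the lists and the tests were chosen with earlier results of these data known. Members named are the fixed names, pairs of relatives, the 3 highest and 3 lowest fold changes per genotype comparison and the 4 highest and 4 lowest by RPKM. Rpl14, Rpl23a, Rpl27a, Rpl35 and Rps23 were named after their values were seen, for their calls in alternatives. No test was made over the list. Values of some genes are not reported here.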

Additional observations from a re-analysis of the deposited data

Results flagged for a closer look

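Of 93 groups of 6 libraries examined (the tested named members and 2 summaries per genotype), 7 held a library that lay far from the other 5 by Dixon's ratio at its 95% critical value. Chance gives about 1 in 20 groups, and the members move together, so the 7 are not independent. Dp16 2xIFNRs replicate 1 was the highest of its group in 5 of them: in the share of counts from ribosomal protein genes (1.26%, the others 1.13 to 1.17%), Rpl10 (151 CPM, the others 128 to 134), Rplp0 (179 CPM, the others 158 to 164), Rplp2 (156 CPM, the others 125 to 136) and Rps19 (92.1 CPM, the others 76.8 to 81). WT replicate 6 was the lowest in Rps27a (104 CPM, the others 126 to 138). Dp16 replicate 5 was the lowest in Rps2 (203 CPM, the others 232 to 248). No cause was tested.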

How the results depend on the processing

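The count of members called stayed at 0 in every alternative for Dp16 against WT, Dp16 2xIFNRs against Dp16, sex and the interaction. In Dp16 2xIFNRs against WT it became 4, all lower, with the replicate block (Rpl13a, Rpl14, Rpl23a and Rplp2, adjusted p from 0.0368 to 0.0473), 5 when WT replicate 6 and Dp16 replicate 3 were both dropped, and ran from 0 to 6 over single libraries left out (6 without WT replicate 6, 1 without Dp16 2xIFNRs replicate 1). The other alternatives gave 0. Genes called in all went from 196 to 304 with the block in that comparison. The cause was not tested. The labels do not say that sample numbers pair the libraries, and the main fit did not pair by them. Same-numbered pairs nevertheless correlated more than other pairs (median 0.178 against -0.0352). Of the 18 same-numbered pairs 11 correlated above 0.1 (range -0.181 to 0.428). In the same check 11 of 18 libraries correlated best with a library of their own number. Whether these numbers mark a shared origin is not given, so the main fit may leave out a pairing. The sample descriptions hold further numbers, some of them shared between libraries of different genotypes. Their meaning is not given, and no grouping by them was tried.

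The members' median log2 fold change stayed below 0 under all alternatives. It ran from -0.14 to -0.06 in Dp16 against WT, from -0.18 (-0.175) to -0.09 in Dp16 2xIFNRs against WT and from -0.09 to -0.01 between the duplication genotypes. Members passing an unadjusted 0.05, all lower, numbered 34 in Dp16 against WT and 59 in Dp16 2xIFNRs against WT with the block (5.23% and 6.92% of all genes lower), and 52 and 57 with sample quality weights (5.68% and 6.27%). With sex and age as terms they numbered 5 and 64 (3.6% and 6.17%). The smallest adjusted p of a member in Dp16 2xIFNRs against WT was then 0.0503 (edgeR). Between the duplication genotypes 9 members then passed an unadjusted 0.05, all lower (1.91%), with 79 of 81 below 0. With the block the median of females over males was 0.096, with 79 of 81 above 0 and 8 passing an unadjusted 0.05, all higher in females (4.35% of all genes). Low counts limit Rpl3l, Rpl39l and Rpl10l.

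Of the values of named members, 2700 kept their direction and side of the threshold, 7 passed it newly and 74 changed sign, all of the latter uncalled. The cause was not tested. With libraries left out, the log2 fold changes in Dp16 against WT ran from -0.028 to 0.047 for Rpl22l1, -0.128 to 0.003 for Rpl24, -0.075 to 0.007 for Rpl3, -0.033 to 0.037 for Rpl6, -0.034 to 0.030 for Rpl7l1 and -0.052 to 0.011 for Rps6. In Dp16 2xIFNRs against WT they ran from -0.075 to 0.030 for Rpl24, -0.102 to 0.002 for Rpl39, -0.062 to 0.010 for Rpl6, -0.016 to 0.050 for Rpl7l1 and -0.068 to 0.029 for Rps27l. Between the duplication genotypes they ran from -0.003 to 0.061 for Rpl24, -0.046 to 0.045 for Rpl39, -0.051 to 0.013 for Rpl5, -0.021 to 0.028 for Rpl7, -0.005 to 0.037 for Rpl7l1, -0.015 to 0.033 for Rps15a, -0.046 to 0.013 for Rps25 and -0.054 to 0.021 for Rps27. In Dp16 against WT, limma-voom gave -0.003 for Rpl22l1, sample quality weights gave -0.044 for Rpl22l1 and -0.024 for Rpl6, and sex with age gave 0.001 for Rps6. Between the duplication genotypes, sample quality weights gave 0.021 for Rpl39, 0.009 for Rpl5, 0.018 for Rps25 and 0.015 for Rps27, and sex with age gave -0.017 for Rpl24, -0.048 for Rpl7 and -0.025 for Rps15a. Rpl7 was also at -0.001 with RLE size factors and DESeq2, at -0.002 with the filter of 1 CPM, and at -0.000 with upper quartile scaling.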
